A study of Homo sapiens with 6 samples.

Results

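The MYB family of transcription factors (MYB, MYBL1 and MYBL2) and the forkhead factor FOXM1 were followed in KOPTK1 cells, a human line derived from T-cell acute lymphoblastic leukaemia (T-ALL), with and without an inhibitor of CDK4 and CDK6. Members were chosen by name: every probe set that the platform annotation assigns to 1 of these 4 symbols and to no other gene. This gave 7 of the 54613 non-control probe sets: 2 for MYB, 3 for MYBL1, 1 for MYBL2 and 1 for FOXM1. The brightest probe set over all arrays stood for its gene, so the 4 genes were read among 19775. No filter on low values was applied, and all 4 genes and all 7 probe sets were tested.

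Biotin-labelled total RNA was hybridised to 6 one-colour Affymetrix arrays. The vehicle group (n = 3) and the PD0332991 group (n = 3) were KOPTK1 cells kept for 48 h in RPMI-1640 medium with serum and antibiotics, the second group with 1 µM PD0332991. PD0332991, also known as palbociclib, blocks the kinases CDK4 and CDK6. The series description calls the replicates biological triplicates; all 6 samples come from 1 cell line, and no untreated group was analysed here.

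MYB proteins share a DNA-binding domain of repeated helices but act in different settings. MYB is a regulator of immature blood and T-lineage cells and an oncogene in T-ALL, MYBL1 has its best known role in male germ cells, and MYBL2 is expressed in most dividing cells, where its gene is a classical E2F target that pocket proteins repress in resting cells. In S phase MYBL2 joins the MuvB core (LIN9, LIN37, LIN52, LIN54 and RBBP4), which in quiescent cells is part of the repressive DREAM complex; FOXM1 joins MYBL2-MuvB later at genes of the G2 phase and mitosis, and the FOXM1 protein is itself a substrate of CDK4 and CDK6.

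The arrays had median intensities between 49.1 and 54.3, the highest in vehicle replicate 3. All 15 T-lineage markers examined lay at or above the median intensity of all genes, against 2 of 5 B-cell, 1 of 6 myeloid, 2 of 3 erythroid and 0 of 7 stromal or epithelial markers. The 15 include the T-ALL oncogenes LMO2 and TAL1, and TAL1 lay at 92.0 with vehicle, close to that median of 89.3. The summed intensity of the T-lineage markers was 37731.8 to 40409.3 with vehicle and 48497.1 to 49520.0 with PD0332991, that of the B-cell markers 519 to 592 and 779 to 934 (of these 5 genes CD79A alone passed, from 275 to 543 on average), and that of the myeloid markers 250.3 to 262 and 216 to 231. The part of these shifts in the results below was not tested.

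MYBL2 and FOXM1 fell about equally far, to 10.9% and 10.6% of their vehicle intensity, while neither MYB nor MYBL1 passed the test. Hence 2 of the 4 genes were lower at an adjusted p under 0.05 and 0 were higher, by limma and also at an unadjusted p under 0.05. Of all genes, 29.3% passed in either direction: 13.6% of all genes as lower and 15.6% as higher. Fold changes are differences of log2(intensity + 16), which understates the change of dim probe sets, and their median over all genes was 0.01.

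**Figure D1:**
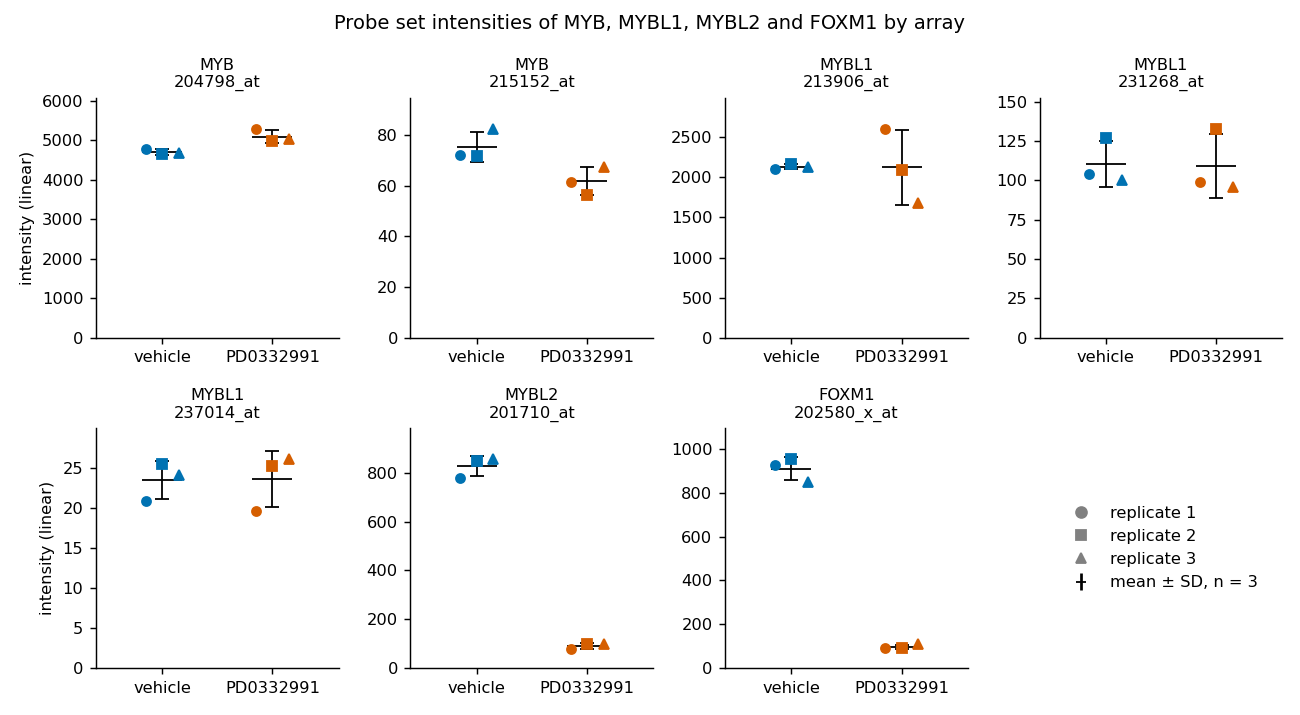
Linear probe set intensity (vertical axes, each from 0) on each of the 6 arrays for the 7 probe sets of MYB, MYBL1, MYBL2 and FOXM1; symbols mark the replicate, and horizontal lines with bars the mean ± SD (n = 3). The PD0332991 arrays of MYBL2 (75.7 to 98.7) and FOXM1 (89.4 to 108) lie far below their vehicle arrays, whereas those of MYBL1 213906_at spread from 1674 to 2600.01 around the vehicle values.

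For MYBL2 (probe set 201710_at), the vehicle arrays gave 781, 850.3 and 855, and the PD0332991 arrays 75.7, 96.8 and 98.7. Every treated array lay below every vehicle array. The means were 829 ± 41.6 (SD, n = 3) and 90.4 ± 12.8 (SD, n = 3), and the log2 fold change was −3.00 (SE 0.10, limma adjusted p = 2.4e-05), a 7.97-fold decrease with a 95% interval of 6.70 to 9.49. In RNA from bulk culture, fewer cells that express a gene and less of its RNA per cell cannot be told apart, here and in the results that follow.

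FOXM1 (probe set 202580_x_at) was measured at 927, 953 and 851 with vehicle and at 89.4, 90.3 and 108 with PD0332991, again with no overlap. Its means were 910.2 ± 53.0 (SD, n = 3) and 96.0 ± 10.7 (SD, n = 3). The log2 fold change was −3.05 (SE 0.09, limma adjusted p = 2.4e-05), an 8.28-fold decrease with a 95% interval of 7.13 to 9.62. The suffix _x_at marks a probe set whose probes can match more than 1 transcript, and no other FOXM1 probe set was at hand to compare. Among all 19775 genes, 49 had a lower log2 fold change than FOXM1 and 52 a lower one than MYBL2.

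On the log2 scale, MYB was the member with the smallest spread among treated arrays (SD 0.05). Its bright probe set 204798_at gave 4779.9, 4644 and 4667 with vehicle and 5275, 4964 and 5024 with PD0332991. All treated arrays lay above all vehicle arrays; among all genes, the groups did not overlap in one direction or the other for 43.0%. The means were 4697 ± 72.9 (SD, n = 3) and 5088 ± 165 (SD, n = 3), and the difference on the log2 scale, 0.11 (SE 0.05, limma adjusted p = 0.18), did not pass; with eBayes fitted with a mean-variance trend it did (adjusted p = 0.040).

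The dim MYB probe set 215152_at went the other way, from 72.4, 71.8 and 82.4 with vehicle to 61.4, 56.5 and 67.5 with PD0332991, without overlap, as for 36.7% of all probe sets. In the fit over all probe sets, in which 21.0% passed (10.7% higher and 10.2% lower), its log2 fold change was −0.23 (95% interval −0.44 to −0.03, limma adjusted p = 0.11), while that of 204798_at was 0.11 (95% interval −0.04 to 0.27). Neither passed; limited to the brighter probe sets, 215152_at did (adjusted p = 0.039). The mean of both probe sets gave −0.06 (limma adjusted p = 0.54), so the sign for the gene depended on the probe set.

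For MYBL1 the group means were close, while the treated arrays scattered widely. Probe set 213906_at gave 2106, 2167 and 2131 with vehicle and 2600.01, 2095 and 1674 with PD0332991. The treated replicate 1 was above and the treated replicates 2 and 3 below all vehicle arrays. The means were 2135 ± 30.5 (SD, n = 3) and 2123 ± 464 (SD, n = 3), and the log2 fold change was −0.03 (SE 0.16, limma adjusted p = 0.92; 95% interval −0.41 to 0.35). It was 0.13 without PD0332991 replicate 3 and −0.19 without PD0332991 replicate 1, and passed in neither case. On the log2 scale, the SD of the treated arrays (0.32) exceeded that of 99.5% of the 9888 genes at or above the median intensity, and the SD of the vehicle arrays (0.02) exceeded that of 8.69% of them.

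The other MYBL1 probe sets did not show this order of arrays. Probe set 231268_at gave 104, 127 and 100.1 with vehicle and 99.3, 133 and 96.1 with PD0332991, with replicate 2 highest in both groups. Probe set 237014_at, near the dim end of the array, gave 20.9, 25.5 and 24.2 with vehicle and 19.6, 25.2 and 26.1 with PD0332991. Their 95% intervals, −0.36 to 0.32 and −0.22 to 0.23, both included 0. In all, 2 of the 7 probe sets passed, those of MYBL2 and FOXM1.

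**Figure D2:**
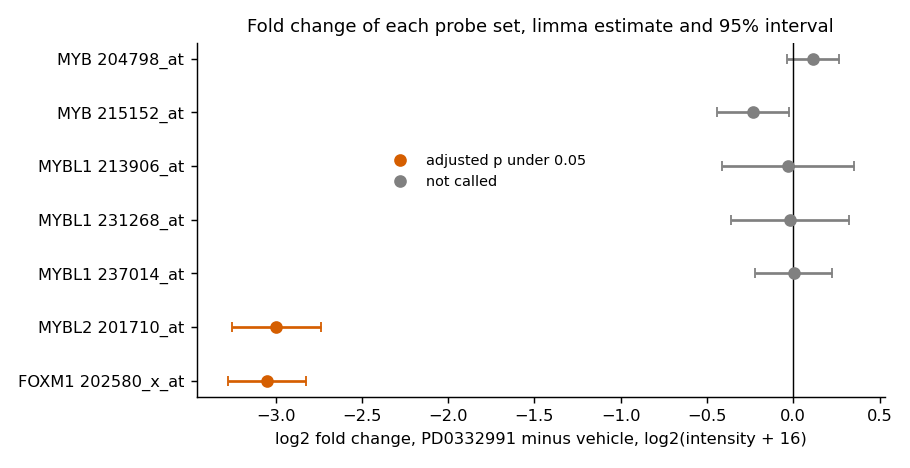
Log2 fold change (PD0332991 minus vehicle, on log2(intensity + 16)) of each of the 7 probe sets, with the 95% interval of the limma fit over all probe sets; orange points passed an adjusted p under 0.05. MYBL2 (−3.00) and FOXM1 (−3.05) stand near −3, and the other 5 probe sets lie between −0.23 and 0.11.

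The contrast between the members was tested directly, as the difference of their log2 values within each array; all 6 pairs were compared by two-sided exact permutation tests over the arrays, for which 0.1 is the smallest possible p. Between MYB and MYBL2 the difference was 2.48 ± 0.09 (SD, n = 3) in vehicle arrays and 5.59 ± 0.22 (SD, n = 3) in treated arrays, a shift of 3.11 (exact permutation p = 0.1, adjusted over the 6 pairs 0.15). The shifts of MYB against FOXM1, MYBL1 against MYBL2 and MYBL1 against FOXM1 were 3.16, 2.96 and 3.02, with the same p. No pair could pass at this number of arrays, although the groups did not overlap for these 4 pairs. MYBL2 minus FOXM1 was −0.13 ± 0.13 (SD, n = 3) in vehicle arrays and −0.08 ± 0.15 (SD, n = 3) in treated arrays, a shift of 0.05 (exact permutation p = 0.6, adjusted 0.6). MYB minus MYBL1 shifted by 0.15 (exact permutation p = 0.6, adjusted 0.6).

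The upstream sequences of MYB and MYBL2, a member that did not pass and one that fell, are shown because MYBL2 is a textbook E2F target. RefSeq (GRCh38.p14) gave windows for these 2 members; FOXM1 and MYBL1 are named only. Each line holds the 120 bases before the annotated start, 5′ to 3′ on the gene's strand, and capitals mark the letters GGCGGGA of an E2F site. The MYB window is chr6:135181188-135181307 and the MYBL2 window chr20:43666994-43667113, both on the plus strand.
MYB: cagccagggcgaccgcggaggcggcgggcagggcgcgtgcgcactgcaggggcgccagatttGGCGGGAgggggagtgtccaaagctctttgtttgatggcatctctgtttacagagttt
MYBL2: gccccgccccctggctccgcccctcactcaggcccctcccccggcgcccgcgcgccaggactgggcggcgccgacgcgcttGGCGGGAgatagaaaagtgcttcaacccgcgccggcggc

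Both windows held these letters, 58 bases before the start in MYB and 39 in MYBL2. On either strand, GGCGGGA occurred in the 250 upstream bases of 13.5% of 35116 RefSeq windows. Neither member's 250 bases held TTTGAA, the letters of the cell cycle genes homology region (CHR) that LIN54 binds, or CCAAT, the box bound by NF-Y; these occurred in 13.3% and 32.0% of windows. The forkhead letters TAAACA occurred once in MYB and 0 times in MYBL2 (10.99% of windows), as did the MYB letters AACNG (70.6%), whose match in MYB overlapped the forkhead one. Only the letters given were searched, on either strand, and variants of these motifs were not. Matches of letters are descriptions and not bound sites.

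Nearly all genes listed as targets of MYBL2-MuvB and FOXM1 in G2 and mitosis fell. Of 36 listed targets, 34 fell and 0 rose by limma (at an unadjusted p under 0.05 also 34 and 0), against 13.6% lower over all genes. All 36 had a log2 fold change below 0, and their median was −2.87, a 7.31-fold decrease, beside 0.01 over all genes. The groups did not overlap for 34 of the 36, compared with 43.0% of all genes. This list and the later ones were written with earlier results of these data known. Their counts therefore describe the arrays and are no independent test.

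KIF2C, a kinesin that depolymerises microtubules at centromeres, fell from 2222 ± 103 to 156 ± 21.0 (SD, n = 3 each), by 3.71 on the log2 scale (SE 0.10, limma adjusted p = 2.4e-05). PRC1, which bundles microtubules of the central spindle, fell by 3.59. KIF20A, a kinesin of cytokinesis, fell by 3.56, and CENPA, the centromeric histone H3 variant, fell by 3.55. CENPF, a kinetochore protein and much used FOXM1 target, fell by 3.23, from 3116 ± 77.9 to 318 ± 19.9 (SD, n = 3 each); its only probe set without the suffix _s_at, a dim one (75.0 with vehicle), gave −0.81. CCNB1, cyclin B1, fell by 2.78 (limma adjusted p = 4.1e-05). PLK1, the mitotic kinase that phosphorylates FOXM1, was read by a single dim probe set and fell by 0.46, from 98.7 ± 12.0 to 67.2 ± 2.60 (SD, n = 3 each; limma adjusted p = 0.011).

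The 2 targets that did not pass were CCNB2, cyclin B2, with a log2 fold change of −0.17 (limma adjusted p = 0.71), and GTSE1, a microtubule-associated protein of G2 and S phase, with −0.03 (limma adjusted p = 0.79). Both depended on the probe set. A second probe set of CCNB2 gave −3.04, and 3 of the 4 other probe sets of GTSE1 gave −3.71, −3.24 and −2.41. With the mean of all probe sets the gene values were −1.17 and −1.89, and both passed. Within the treated group, replicate 1 was the lowest array for 30 of the 36 targets, as it was for MYBL2 and FOXM1. It was also the lowest for 5 of 12 MuvB and DREAM genes and 8 of 17 FOXM1 regulators and partners. For MYB targets it was 11 of 18, and for MYB cofactors and regulators 3 of 16. The share over all genes was not computed, and genes read on the same arrays are not separate observations.

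**Figure D3:**
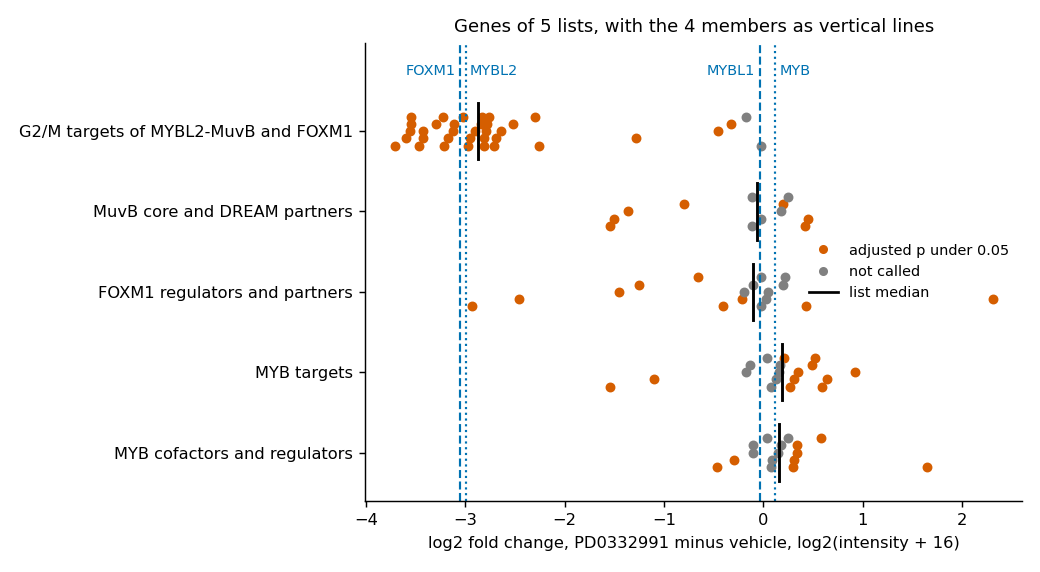
Log2 fold change (PD0332991 minus vehicle, on log2(intensity + 16)) of each measured gene in 5 lists, with black bars for list medians; orange points passed an adjusted p under 0.05, and vertical lines mark FOXM1, MYBL2, MYBL1 and MYB. The G2/M targets sit around a median of −2.87, close to MYBL2 and FOXM1, and the medians of the other 4 lists lie between −0.10 and 0.19.

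Promoters of G2/M targets are shown because the CHR and CCAAT letters, unmatched in the MYBL2 window, were frequent there. The lines give PRC1, among the targets that fell furthest, and PLK1, whose measured decrease, on a dim probe set, was small. Each holds 120 bases before the RefSeq start (GRCh38.p14), 5′ to 3′, with TTTGAA and CCAAT, on either strand, in capitals. The PRC1 window is chr15:90994536-90994655 on the minus strand and the PLK1 window chr16:23678769-23678888 on the plus strand.
PRC1: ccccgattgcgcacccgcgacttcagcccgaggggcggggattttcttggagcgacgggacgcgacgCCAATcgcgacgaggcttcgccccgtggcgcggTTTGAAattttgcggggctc
PLK1: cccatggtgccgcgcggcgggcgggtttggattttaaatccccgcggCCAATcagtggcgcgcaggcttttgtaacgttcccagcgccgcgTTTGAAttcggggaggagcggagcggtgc

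The CHR letters began 20 bases before the start in PRC1 and 29 in PLK1, and the CCAAT letters 53 and 73 bases before it. Of the 31 targets with a RefSeq window, 18 (58.1%) held TTTGAA and 28 (90.3%) held CCAAT in 250 bases, compared with 16.1% and 37.0% of 27305 genes. A gene with several windows has more chances of a match. Of the 18, 17 also held CCAAT. The median distance of the CHR letters from the start was 29 bases over all 18, and it was at most 60 bases in 12 of them. For each gene only the match nearest a start, over all its windows, was kept, which favours short distances. The distance over all genes was not computed. GGCGGGA was found in 10 of 31 (32.3%), TAAACA in 3 (9.68%) and AACNG in 26 (83.9%), where all genes gave 15.99%, 13.1% and 74.6%. The windows of PRC1 and PLK1 held the same pair of motifs. Their measured log2 fold changes were −3.59 and −0.46. The PLK1 value comes from a single dim probe set, at 98.7 with vehicle against 1914 for PRC1. The part of this dimness in the small decrease was not tested.

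The partners with which MYBL2 forms its complex went in both directions. Of 12 genes of the MuvB core and DREAM, 4 fell, 3 rose and 5 did not pass. Over all genes, 13.6% fell and 15.6% rose. The median log2 fold change was −0.07. Among the 5 core subunits, LIN9, the scaffold, fell by 1.55 (SE 0.05, limma adjusted p = 2.4e-05), from 1051 ± 35.1 to 349 ± 5.60 (SD, n = 3 each), and LIN54, the subunit that binds the CHR, fell from 374 ± 8.89 to 122 ± 9.66 (SD, n = 3 each; log2 fold change −1.50, SE 0.07, limma adjusted p = 5.4e-05). LIN9 rested on its brightest probe set, which ends in _x_at; its other 2 probe sets had mean intensities of 2.73 to 6.63, under the pseudocount of 16, where a decrease could not be seen.

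LIN37, LIN52, the subunit whose phosphorylation by DYRK1A assembles DREAM, and the histone-binding RBBP4 had log2 fold changes of 0.25, −0.02 and −0.12, and none passed (limma adjusted p = 0.15, 0.90 and 0.28). LIN37 passed without vehicle replicate 3, at 0.37 (limma adjusted p = 0.015), and with array weights or among brighter genes only (limma adjusted p = 0.028 and 0.047). RBBP4 passed as the mean of its probe sets, at −0.38 (limma adjusted p = 0.0022), and 3 of its 5 other probe sets were lower.

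The pocket proteins and E2F subunits of DREAM were also mixed. RBL1 (p107) fell by 1.36 and the E2F partner TFDP1 fell by 0.80 (limma adjusted p = 0.00019 and 0.00059), and all other probe sets of both genes were lower too. E2F5, a repressor E2F, rose by 0.45 and TFDP2 by 0.42 (limma adjusted p = 0.0028 and 0.0020), but the mean of the TFDP2 probe sets was 0.10 (limma adjusted p = 0.38). RBL2 (p130), the pocket protein of resting cells, had 0.20 (limma adjusted p = 0.0475) and lost the call when any 1 of the 6 arrays was left out (limma adjusted p = 0.072 to 0.14). E2F4 had 0.18 and the kinase DYRK1A −0.11, and neither passed.

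Of 17 measured regulators and partners of FOXM1, 7 fell, 2 rose and 8 did not pass, where 13.6% of all genes fell and 15.6% rose. Their median was −0.10. The count of 7 was 5 or 6 when any 1 of the 6 arrays was left out. MELK, a kinase that acts with FOXM1, fell from 3414 ± 113 to 434 ± 49.1 (SD, n = 3 each); the log2 fold change was −2.94 (SE 0.09, limma adjusted p = 2.4e-05). CCNE2 (cyclin E2) fell by 2.46, and CDK2, the kinase it activates, fell by 1.46. The genes that rose were CCND2 (cyclin D2), from 1185 ± 100.2 to 5926 ± 166 (SD, n = 3 each), by 2.31 (SE 0.08, limma adjusted p = 2.4e-05), and CDK6, by 0.43 (limma adjusted p = 0.0022). CDK6 encodes a kinase that PD0332991 inhibits and CCND2 a cyclin that activates it. CDK4, the other inhibited kinase, fell by 0.66, from 1350 ± 21.5 to 853 ± 99.8 (SD, n = 3 each; limma adjusted p = 0.0033), and was named after its value was seen.

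Genes listed as MYB targets were mostly higher or not called. Of 18, 9 rose, 2 fell and 7 did not pass, where 15.6% of all genes rose, and the median was 0.19. RAG1, the recombinase of antigen receptor genes, rose by 0.92, from 998 ± 100.3 to 1909 ± 228 (SD, n = 3 each; limma adjusted p = 0.0019), and the survival gene BCL2 by 0.49 (limma adjusted p = 0.0023), although the other 3 probe sets of BCL2 did not pass and their joint mean with it gave 0.31. CCNE1 (cyclin E1) fell by 1.54 and the chemokine receptor CXCR4 fell by 1.10 (limma adjusted p = 0.00024 and 0.00034); the mean of the CCNE1 probe sets was −0.79. The count of 9 was 5 without vehicle replicate 1 and 5 without vehicle replicate 2.

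LMO2, a T-ALL oncogene, rose by 0.64 (limma adjusted p = 0.00083) on its brightest probe set, but it was −0.47 once _x_at and _s_at probe sets were left out (limma adjusted p = 0.047). GATA3, a T-lineage factor, had 0.27 (limma adjusted p = 0.027) and did not pass without PD0332991 replicate 1 or 2 or without vehicle replicate 1 or 2 (limma adjusted p = 0.070, 0.080, 0.086 and 0.071). Its other 2 probe sets did not pass either, the mean of all 3 gave 0.14 (limma adjusted p = 0.12), and with _x_at and _s_at probe sets left out it had 0.05 (limma adjusted p = 0.68). MYC had 0.03 (limma adjusted p = 0.75). KIT and CD4 lay at 7.85 to 13.2 on average, under the pseudocount of 16, and gave 0.13 and 0.15 without passing. The list shares 5 genes with the T-lineage markers, and 4 of the shared genes rose, LMO2 among them. Of all 15 markers, 9 rose and 0 fell by limma, where 15.6% of all genes rose and 13.6% fell. At an unadjusted p under 0.05 the marker counts were 10 and 0. How far these markers account for the count of MYB targets that rose was not tested.

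Among 16 cofactors and regulators of MYB, 6 rose, 2 fell and 8 did not pass, where 15.6% of all genes rose and 13.6% fell. Their median was 0.16. MAF, a bZIP factor that binds MYB, rose by 1.65, from 193 ± 35.5 to 635 ± 72.1 (SD, n = 3 each; limma adjusted p = 0.00048), and LMO4, a LIM-only protein, by 0.59 (limma adjusted p = 0.0028). With _x_at and _s_at probe sets left out, MAF had 0.76 and LMO4 0.42, and neither passed (limma adjusted p = 0.077 and 0.059). TRIM28, a corepressor, fell by 0.46 and KMT2A, the histone methyltransferase, fell by 0.30 (limma adjusted p = 0.0050 and 0.011). SND1, a coactivator, had 0.34 (limma adjusted p = 0.037) and did not pass without PD0332991 replicate 2 or 3 or vehicle replicate 1 or 2 (limma adjusted p = 0.103, 0.097, 0.12 and 0.11). The count of 6 was 3 without vehicle replicate 1.

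The genes with array patterns most like each member were named by the smallest root mean square difference over the 6 arrays of log2 values centred on the vehicle mean, among genes at or above the median intensity. For MYBL2 they were CEP55, which acts at the abscission of dividing cells (0.073), MCM10, a replication initiation factor (0.089), and MELK (0.090). For FOXM1 they were ERCC6L, a mitotic DNA translocase (0.060), CENPE, a kinetochore kinesin (0.062), and the DNA polymerase gene POLQ (0.069). As their selection by pattern required, these 6 genes all fell, with log2 fold changes from −3.12 to −2.94.

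For MYB the closest patterns were AFG3L1P, a pseudogene (0.013), RBM28, a nucleolar protein (0.014), and GFM1, a mitochondrial elongation factor (0.014). Their log2 fold changes, close to that of MYB by selection, were 0.10, 0.13 and 0.10, and like MYB none passed. For MYBL1 they were ZNF446 (0.043), TRMT61A, a tRNA methyltransferase subunit (0.083), and EPS8L1 (0.087), which had −0.02, −0.06 and −0.04 and did not pass. Selected by pattern, ZNF446, TRMT61A and EPS8L1 all had the order of treated arrays of MYBL1, with replicate 1 highest and replicate 3 lowest. The genes named for each member are the closest of the 9888 genes compared over 6 arrays, so a close match is a description of these arrays.

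**Figure D4:**
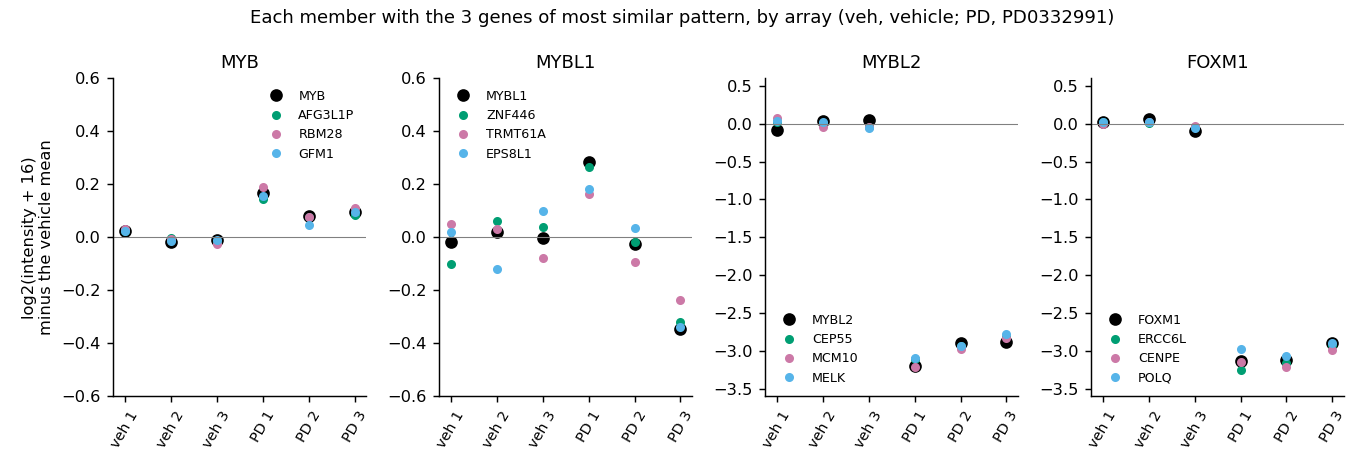
Log2(intensity + 16) minus the gene's vehicle mean (vertical axes; the left pair and the right pair of panels have different scales) on each of the 6 arrays, for each member (black) and the 3 genes with the smallest root mean square difference from it (colours). MYBL2, FOXM1 and their closest genes drop by about 3 on the treated arrays, MYB and its closest genes stay within 0.2, and MYBL1 runs from high in PD0332991 replicate 1 to low in replicate 3.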

How the data were processed

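Total RNA was labelled and hybridised per the labels' protocols, 1 array per sample. The authors deposited linear intensity values for 54675 probe sets on each array. For background correction, summarisation and scaling, the method was not given in the sources used here; that the scale is linear was inferred from the range of the values. No scaling was added, since the arrays' means after trimming 2% from each end ranged from 282 to 294. No detection calls or scan batches were used, and 25.5% of values lay below 16.

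The 62 control probe sets were left out. The platform annotation gave 1 symbol for 41091 probe sets, several for 1801 and none for 11721. Symbols were updated by gene ID through RefSeq (GRCh38.p14), where 54 found no match. The brightest probe set stood for its gene. Groups were compared on log2(intensity + 16) with limma 3.58.1 in R 4.3.3 (4 residual degrees of freedom, two-sided), with Benjamini-Hochberg adjustment over all 19775 genes or all 54613 probe sets and a threshold of 0.05.

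The members and gene lists were chosen with earlier results of these data known. Named genes were all probe sets of the members, in each list up to 4 of the largest changes that passed and up to 3 opposed to the majority, those that did not pass where 5 or fewer, the listed chromosome neighbours, the MuvB core, 8 preset targets and the 3 closest patterns per member. On data simulated from these arrays with 19775 genes, the test recovered 24 of 50 genes shifted by 0.5 (log2), 45 of 50 shifted by 1 and all 50 shifted by 2, and it called 12 of 19575 unchanged genes. Far fewer genes were changed there than the 29.3% that passed in the data. The adjustment depends on that share, so these recovery rates need not hold for the data. Alternatives were a replicate block, leaving out arrays, scaling, pseudocounts, filters, probe set rules, variance settings and array weights.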

Additional observations from a re-analysis of the deposited data

How the results depend on the processing

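MYBL2 (−3.19 to −2.53) and FOXM1 (−3.24 to −2.61) stayed lower and called under every alternative run; FOXM1 has no probe set without the suffix _x_at or _s_at. The labels do not say whether same-numbered replicates were paired. Correlations of deviations were 0.0033, 0.076 and 0.083 between same-numbered arrays and −0.079 to 0.022 between the others. With replicate numbers as a block, MYBL2 and FOXM1 had limma adjusted p = 0.0018, MYB 0.25 and MYBL1 0.90. The calls over all genes went from 3088 higher and 2698 lower to 2520 and 2273. The block ended the calls of GATA3, RBL2, SND1 and TULP3 (limma adjusted p = 0.071, 0.12, 0.057 and 0.080). MYB had 0.11 (adjusted p = 0.040, now called) with eBayes trend. The cause of each change was not tested.

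The mean of probe sets gave MYB −0.060, AFG3L1P −0.093, EPS8L1 0.0015, ZNF446 0.051 and MYB minus MYBL1 −0.044; it left 1 higher MuvB and DREAM gene and 4 higher FOXM1 regulators (also 4 among brighter genes). Without _x_at and _s_at probe sets, AFG3L1P had −0.28, HBS1L 0.021, LIN9 0.26 (on a probe set below the pseudocount) and LMO2 −0.47, with 1 higher MuvB and DREAM gene, 5 higher MYB targets and 2 higher MYB cofactors. Quantile normalization gave MYBL1 (213906_at) 0.0025, GTSE1 0.025, LIN52 0.026 and 237014_at −0.0056, and array weights KIT −0.0068 and LIN52 0.054. Median centring gave 237014_at −0.0098, and a pseudocount of 1 gave it −3.7e-05 and CD4 −0.026.

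Leaving out arrays one at a time, values not called in full ran as follows: MYBL1 (213906_at) −0.19 to 0.13, 231268_at −0.15 to 0.073, 237014_at −0.047 to 0.077, CCNB2 −0.48 to 0.0024, CD4 −0.12 to 0.47, EPS8L1 −0.15 to 0.11, GTSE1 −0.056 to 0.00033, KIT −0.067 to 0.30, LIN52 −0.11 to 0.028, MYC −0.013 to 0.071, SGK2 −0.23 to 0.039, TRMT61A −0.16 to 0.035, ZNF446 −0.17 to 0.12, MYB minus MYBL1 −0.0046 to 0.28 and MYBL2 minus FOXM1 −0.027 to 0.12. Higher MYB targets ran from 5 to 8 and higher MYB cofactors from 3 to 5. Dim probe sets near 16 cannot be told from background.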

Other observations

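A list of 10 genes near the members in RefSeq gene order, which does not hold every nearest gene, was examined as a further group; 9 were measured, and SGK3 was not analysed here. Of the 9, 3 fell, 2 rose and 4 did not pass by limma, where 13.6% of all genes fell and 15.6% rose. Their median log2 fold change was −0.07. RHNO1, a checkpoint factor whose gene lies next to FOXM1 and is divergently transcribed from it, went from 1420.0 ± 8.57 to 579 ± 43.0 (SD, n = 3 each) and fell by 1.27 on the log2 scale (SE 0.07, limma adjusted p = 9.2e-05). Its other probe set was lower as well. TULP3, one gene further, had −0.21 (limma adjusted p = 0.031) and did not pass without any 1 of the PD0332991 replicates or without vehicle replicate 1 or 2 (limma adjusted p = 0.054 to 0.105). In the fit over all probe sets, the other TULP3 probe set had −0.43 and passed (limma adjusted p = 0.022), while the brightest had −0.21 and did not (limma adjusted p = 0.062).

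AHI1, the ciliary gene beside MYB and a common site of retroviral insertion in mouse leukaemias, rose from 230.4 ± 13.1 to 486 ± 23.4 (SD, n = 3 each), by 1.03 on the log2 scale (SE 0.07, limma adjusted p = 0.00018), while MYB had 0.11 and did not pass. Of the 4 other AHI1 probe sets, 1 was higher and 3 did not pass, and the mean of all 5 gave 0.31 (limma adjusted p = 0.020). HBS1L, on the other side of MYB and the gene of a ribosome rescue factor, had −0.31 (limma adjusted p = 0.0060), but 0.02 once _x_at and _s_at probe sets were left out. ALDH8A1, beyond HBS1L, rose by 0.66 (limma adjusted p = 0.0028). Beside MYBL2, IFT52, SGK2 and TOX2 had −0.07, −0.06 and −0.20, and beside MYBL1, VCPIP1 had 0.05; none of these 4 passed.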
